A study of Mus musculus with 4 samples.

Results

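Replication-dependent histone genes were the subject of the comparison, taken as the rows of the count table whose gene name begins with Hist1h to Hist4h followed by the class H1, H2A, H2B, H3 or H4. The rule used names and no measured value, and it found 70 of the 52459 genes listed. There were 6 genes of H1, 20 of H2A, 19 of H2B, 12 of H3 and 13 of H4, of which 67 are annotated as protein-coding and 3 as pseudogenes (Hist1h2aj, Hist1h2al and Hist3h2bb-ps). The counts came from intestinal stem cells (ISCs) sorted from the small intestine of wild-type C57/Bl6 mice, 2 libraries from animals of 2 months (young, ISC_2mth) and 2 from animals of 22 months (old, ISC_22mth). Cells of 5 animals were combined for each library, so that differences between single mice are not visible, and the animals used by the study were female. Sorting kept epithelial cells with the surface pattern of crypt base stem cells (EPCAM+, CD24med, CD166+, CD44high, GRP78low, EPHB2high) and removed CD31+ and CD45+ cells.

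Histones are the proteins around which DNA is wound. H2A, H2B, H3 and H4 form the core of the nucleosome, and H1, the linker histone, binds where DNA enters and leaves it. The genes counted here are switched on in S phase, when new DNA must be packed, which in the intestine occurs mainly in crypt cells that divide. Their messenger RNAs are unusual in that most end in a short stem-loop, bound by the protein SLBP, in place of a poly(A) tail, whereas some of the genes can also give polyadenylated transcripts, which are known from cells that have left the cycle. The labels name the RNA measured as poly(A) RNA, and amplification was by single primer isothermal amplification (SPIA), so that the level of a histone gene in these libraries also depends on how its transcripts end and how they were primed, and neither was measured.

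The stem-loop was searched in the annotated transcripts of GENCODE vM21 (GRCm38), on the sense strand, as 16 bases that read GG, any 2 bases, CTT, any base, T, any base, AG, any 2 bases and CC. It occurred in 46 of the 70 histone genes (65.7%) and in 0.28% of 55271 other gene names. It was found in 4 of 6 H1, 11 of 20 H2A, 10 of 19 H2B, 9 of 12 H3 and 12 of 13 H4 genes. The sequences below are those of the most counted gene of H1 and of H4, of an H2B gene whose model ends soon after the stem-loop, and of the genes of clusters 2, 3 and 4 described further on, with the match in capitals and 7 bases on each side.
Hist1h1e: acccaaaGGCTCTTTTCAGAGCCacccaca
Hist1h4d: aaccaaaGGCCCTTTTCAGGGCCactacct
Hist1h2bm: acacaaaGGCTCTTTTCAGAGCCactaagc
Hist2h4: ccctaacGGCCCTTTTTAGGGCCaaccaca
Hist3h2a: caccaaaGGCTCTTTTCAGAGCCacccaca
Hist4h4: ccacaaaGGCCCTTTTCAGGGCCcacaaag
The form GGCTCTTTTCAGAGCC was the most frequent, in 26 genes of H1, H2A, H2B and H3 and in 0 of H4, whereas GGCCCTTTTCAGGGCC was found in 7 genes, all of H4. After the stem-loop, 23 gene models ran on for at most 100 nt, and the other 23 ran further, by 4884 nt in Hist1h1d. In 24 genes no transcript held a match, among them short models such as that of Hist1h2bl (381 nt) and the H2B genes Hist1h2bc and Hist2h2be. The model of Hist1h2bc has 2 exons spread over chromosome 13 from 23684199 to 23692908, and that of Hist2h2be is a single exon of 2620 nt with AATAAA, the usual poly(A) signal, within its last 60 nt.

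Promoters of 61 of the 70 genes were matched through gene name synonyms in the RefSeq table (build GRCm38.p6, 62 promoters of 300 bases, from 250 before to 50 after the start). A CCAAT box (CCAAT, either strand) was present in all 6 H1, all 17 H2A, all 17 H2B and all 10 H3 promoters, but in 3 of 12 H4 promoters, against 37.4% of all 32851 promoters. The octamer ATTTGCAT was found in 7 of 17 H2A and 7 of 17 H2B promoters, against 1.74% of all promoters, and in none of the H1, H3 or H4 promoters. The H1 box AAACACA was found in 5 of 6 H1 promoters (7.18% of all), and GGTCCG, part of a known H4 element, in 11 of 12 H4 promoters (8.25% of all). TATAAA was found in 4 of 6 H1, 11 of 17 H2A, 8 of 17 H2B, 4 of 10 H3 and 8 of 12 H4 promoters, against 13.6% of all. Members of one family share ancestry and sequence, so these shares describe the families and were not tested. The promoters below are shown because they stand for H1, H4 and the paired H2A and H2B genes whose values are given later. Capitals mark the matches to the 5 motifs.
Hist1h1b: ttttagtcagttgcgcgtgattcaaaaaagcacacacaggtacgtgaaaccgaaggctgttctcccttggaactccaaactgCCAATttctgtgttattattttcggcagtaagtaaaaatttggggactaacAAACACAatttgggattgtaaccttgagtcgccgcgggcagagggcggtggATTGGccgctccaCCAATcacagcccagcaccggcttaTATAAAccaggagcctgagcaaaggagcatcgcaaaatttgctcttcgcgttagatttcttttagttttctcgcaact
Hist1h4d: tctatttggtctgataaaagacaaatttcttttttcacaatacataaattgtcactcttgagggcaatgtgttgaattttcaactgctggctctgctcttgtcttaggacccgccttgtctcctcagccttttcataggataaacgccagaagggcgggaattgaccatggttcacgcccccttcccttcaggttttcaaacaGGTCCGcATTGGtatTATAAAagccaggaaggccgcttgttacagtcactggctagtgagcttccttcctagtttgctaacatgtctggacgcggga
Hist1h2bl: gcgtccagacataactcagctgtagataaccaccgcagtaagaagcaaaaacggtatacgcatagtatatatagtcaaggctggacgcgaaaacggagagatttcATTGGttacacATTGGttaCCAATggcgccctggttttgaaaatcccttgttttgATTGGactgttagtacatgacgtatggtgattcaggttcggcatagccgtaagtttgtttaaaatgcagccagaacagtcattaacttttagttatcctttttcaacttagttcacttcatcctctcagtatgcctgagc
Hist1h2ac: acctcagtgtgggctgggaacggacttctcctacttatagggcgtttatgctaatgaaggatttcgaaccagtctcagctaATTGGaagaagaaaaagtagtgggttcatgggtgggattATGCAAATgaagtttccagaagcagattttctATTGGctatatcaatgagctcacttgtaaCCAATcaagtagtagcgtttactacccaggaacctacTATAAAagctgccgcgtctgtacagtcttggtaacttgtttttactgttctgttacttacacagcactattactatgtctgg
These windows lie on chromosome 13, as chr13:21780576-21780875 (minus strand) for Hist1h1b, chr13:23581318-23581617 (plus strand) for Hist1h4d, chr13:21716134-21716433 (minus strand) for Hist1h2bl and chr13:23683910-23684209 (minus strand) for Hist1h2ac. TATAAA begins 28 bases before the start in Hist1h1b and 32 bases before it in Hist1h4d and Hist1h2ac. The last window also covers the whole space to the start of Hist1h2bc on the opposite strand, and holds the octamer in its reverse complement.

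**Figure D1:**
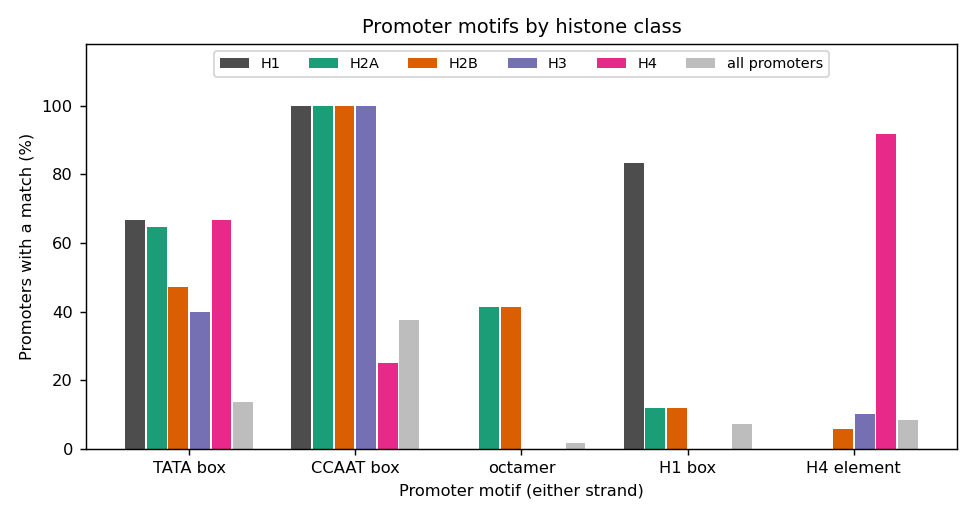
Share of promoters (%, y axis) with a match on either strand to each of 5 motifs (x axis), for H1, H2A, H2B, H3 and H4 genes in colour and all promoters of the table in grey. The H1 box was matched in 5 of 6 H1 promoters and the H4 element in 11 of 12 H4 promoters, whereas the CCAAT box was in all promoters of the other classes and 3 of 12 of H4.

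The reads counted on genes came to between 11662654 and 15975698 per library. Mitochondrially encoded genes took 62.6% and 65.7% of them in the young pools and 73.8% and 72.9% in the old pools (95% Wilson intervals at most 0.0555 percentage points wide). The counts were scaled to normalized CPM, which are counts set relative to the library total after TMM scaling. A floor of 3 counts in 1 pool corresponds to between 0.198 and 0.245 normalized CPM, and floors and intervals cover counting error only, since SPIA reads carry no molecular identifiers. Of 12 ISC markers, all tested, edgeR's quasi-likelihood test called 0, with 2 higher and 5 lower at an unadjusted p under 0.05 (9.26% and 7.65% of all genes), and both old pools lay below both young pools in 6 and above them in 2 (23.6% and 24% of all genes). Axin2 (log2 fold change -0.46, adjusted p = 0.051) and Ephb2 (-0.52, adjusted p = 0.058) were called lower by limma voom with weights and the likelihood ratio test, and Axin2 also by DESeq2, whereas Ascl2 and Slc12a2 had log2 fold changes of 0.33 and 0.25. Lgr5, a receptor that marks crypt base stem cells, had 3599 and 3236 counts in the young pools and 2758 and 2518 in the old pools. Olfm4 had 18866 and 18563 against 14687 and 15745. These counts are not scaled, and 1 count stood for 0.0689 and 0.0662 normalized CPM in the young pools and 0.0756 and 0.0818 in the old pools. In fits that left out a pool, the log2 fold change ran from -0.26 to -0.047 for Lgr5 and from -0.19 to 0.028 for Olfm4. Ptprc, which encodes the leukocyte antigen CD45, had 0 counts in both young pools and 2 and 0 in the old pools, whereas the sums over 21 leukocyte markers, 8 of them at 0 and 1 tested and called higher (Itgam, not with DESeq2 or total counts), were 174 and 229 against 295 and 266 counts. Of the 9 Paneth cell markers, all tested, 2 were called higher in the old pools by edgeR's quasi-likelihood test (Defa17 and Defa24), against 1.63% of all genes. DESeq2 called 0, the offsets or total counts 1, the likelihood ratio test 3 and a replicate block 6. Their summed counts were 13944 and 11117 in the young pools and 28059 and 10030 in the old pools. In CPM these were 961 and 735 against 2120 and 820, so that the first old pool stood apart. Of the 11 enterocyte markers 3 were called higher by edgeR's quasi-likelihood test (2 by DESeq2, 4 by limma voom with weights, 5 by the likelihood ratio test and 7 with a replicate block), 8 were higher at an unadjusted p under 0.05 and 7 had both old pools above both young pools, with sums of 8712 and 11118 against 15352 and 12542. Their part in the histone values was not tested.

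Histone genes took few reads. The 70 genes together had 2342 and 2488 counts in the young pools and 1804 and 1978 in the old pools. After normalization the sums were 161 and 165 CPM in the young pools and 136 and 162 CPM in the old pools. The lowest of these 4 values belonged to the first old pool, and the second old pool lay within the young range. As means this was 163 ± 2.31 CPM against 149 ± 18 CPM (SD, n = 2 pools per age), a difference smaller than the spread between the old pools. In bulk RNA, fewer cells in S phase and less histone RNA per cell cannot be told apart.

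The classes held unequal shares of the counts, which also grow with the length of their gene models. H1 genes held 39.7% of all histone counts, H2B 30.7%, H4 20.6%, H2A 5.95% and H3 3.01%. H1 summed to 67.3 and 67.5 CPM in the young pools and 48.8 and 63.5 CPM in the old pools, so that both old pools were below both young pools. H4 summed to 35.6 and 35.1 CPM against 26.1 and 31.1 CPM, again lower in both old pools. H2B went the other way, with 43.5 and 48.2 CPM in the young pools and 51.8 and 49.3 CPM in the old pools. Without Hist1h2bc and Hist2h2be, a choice made after their values were seen, the H2B sum was 16.5 and 20.2 CPM in the young pools and 11.1 and 13.9 CPM in the old pools, which is lower in both old pools, and the sum over all classes was 134 and 137 CPM against 95.6 and 126 CPM. H2A summed to 8.96 and 9 CPM against 6.57 and 13 CPM, and H3 to 5.99 and 4.70 CPM against 3.10 and 4.91 CPM, and in both classes the ages overlapped. With 2 pools per age an exact two-sided permutation test cannot give a p below 0.333, so the sums were not tested.

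**Figure D2:**
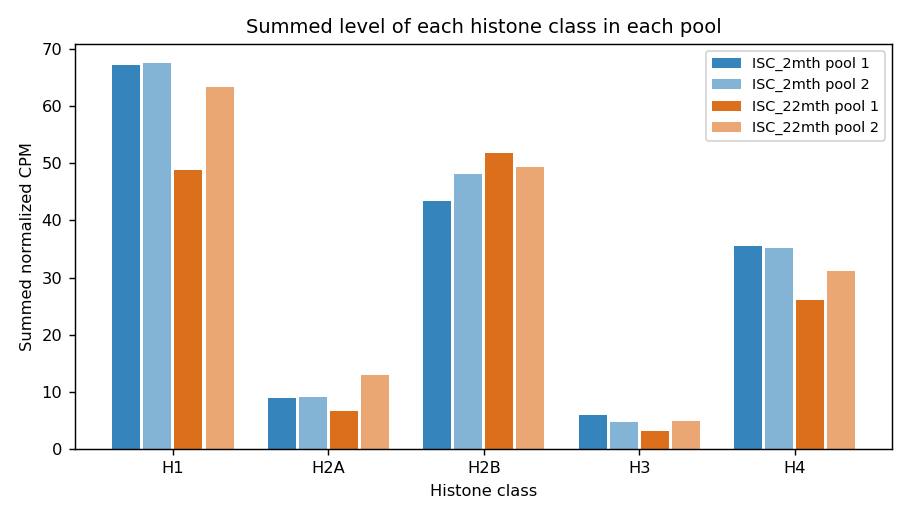
Summed normalized CPM (y axis) of all listed genes of each histone class (x axis) in the 4 pools, young in blue and old in orange. H1 and H4 were lower in both old pools than in both young pools, H2B was higher, and the H2A and H3 sums of the ages overlapped.

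Most of the 70 genes had too few reads to be tested. In 18 genes no read was counted in any pool (which allows up to 3 counts in each pool). Another 25 had reads but did not pass the filter on low values, and 27 were tested. The filter asked for at least 1 pool with over 5 reads and over 1 CPM before TMM scaling. Because many histone genes of a class are nearly the same in sequence, the share of each gene's 50-nt stretches that also occur in transcripts of other genes was counted. The median share was 93.1% in the 18 genes without reads, 59.4% in the 25 genes that were not tested and 28.9% in the 27 tested genes. Of 20 genes with more than 80% of their stretches shared, 14 had no read, and Hist1h2bl was the one with more than 100 reads over the 4 pools. Hist2h2aa1, Hist2h2aa2, Hist2h2bb, Hist2h3b and Hist2h3c1, all of cluster 2, shared 100% of their stretches and had 0 counts. How reads with several alignments were handled is not given in the sources used here, so that 0 reads for such a gene does not show that it was silent. The germ cell histone genes Hist1h2aa and Hist1h2ba shared 23.8% and 38.2% and also had 0 counts, and the testis linker histone gene Hist1h1t, with 0% shared, had 5 counts in 1 young pool and 0 in the others.

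**Figure D3:**
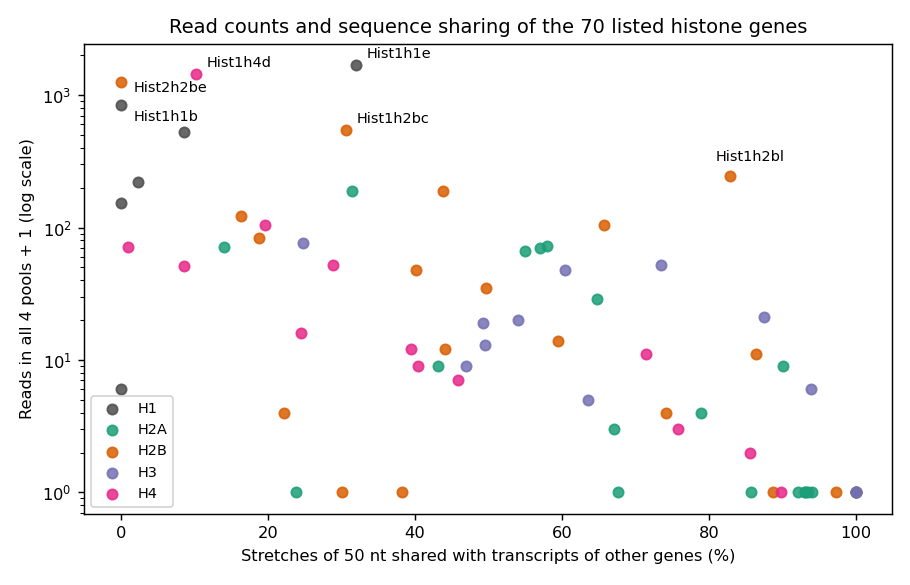
Reads over all 4 pools plus 1 (y axis, log scale) against the share of 50-nt stretches that other genes' transcripts also hold (x axis, %), 1 point for each of the 70 histone genes, coloured by class. Of the 20 genes above 80%, 14 had no read, and the genes with the most reads, such as Hist1h1e, Hist1h4d and Hist2h2be, lay at or below 32%.

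Per length of the annotated exons and averaged over the 4 pools, the level was highest for Hist1h4d (22.9 CPM per kb), followed by Hist1h1b (20.3), Hist1h1e (15.7), Hist1h2bl (11.6), Hist1h2bc (8.73) and Hist2h2be (8.65 CPM per kb). Over the pools the range of each of these genes overlapped that of the next, although within pools Hist1h4d lay above Hist1h1b, and Hist1h1e above Hist1h2bl, in all 4. Hist1h2bl was above Hist1h2bc in both young pools (12.1 and 14.6 against 5.60 and 6.35 CPM per kb) and below it in both old pools (9.32 and 10.3 against 10.8 and 12.2 CPM per kb). The tested H3 genes Hist1h3b, Hist1h3d and Hist1h3e had mean levels of 1.39, 1.10 and 1.09 CPM per kb, and among H2A genes the mean was highest for Hist1h2ak, at 3.18 CPM per kb, followed by Hist1h2ab, at 2.73 CPM per kb. Within both classes these genes overlapped over the pools. These levels rest on the annotated length, which reaches far past the stem-loop in some genes and stops before it in others.

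The age comparison asked which genes differ between young and old ISCs, and used edgeR's quasi-likelihood test with p adjusted (Benjamini-Hochberg) over all 13692 genes tested. Of the 27 histone genes tested, 1 differed between the ages at an adjusted p under 0.05, against 2.26% of all genes tested. That gene, Hist1h2bc, was higher in the old pools, against 1.63% of all genes tested, and 0 histone genes were lower, against 0.628% of all genes. Limma voom with sample quality weights, edgeR's likelihood ratio test and DESeq2 also called 0 lower. At an unadjusted p under 0.05, 1 histone gene was lower (Hist1h1b), whereas 7.65% of all genes were, and 1 was higher, whereas 9.26% of all genes were. The log2 fold change (old over young) was below 0 in 19 of the 27 genes, against 50.5% of all genes tested, and its median was -0.28, against -0.0049 over all genes. In 12 of the 27 both old pools lay below both young pools, against 23.6% of all genes, and in 4 both lay above, against 24% of all genes. Log2 fold changes are given on the TMM scale. Scaling by total counts, which the mitochondrial share enters, moved the median of all genes by -0.49 and gave 8 of the 27 histone genes lower, against 33.1% of all genes tested, and 0 higher, so that directions of small size turn with the scaling.
These counts come with the filter, since 6 of the 27 genes passed it in young pools only. Such genes tended to be high there, although Hist1h4i, 1 of them, had a log2 fold change of 0.040. The filter used library totals before TMM scaling. Passing it took at least 12 and 14 counts in the young pools and 16 and 15 in the old pools. Of the 21 that passed in both ages, 14 had a log2 fold change below 0, against 46.8% of the 12076 genes that did so. Both old pools lay below both young pools in 8 of them, against 21.1% of those genes, and above in 4, against 25.9%. Among the fits that left out a pool, the median ran from -0.60 without the second old pool to -0.11 without the first. Of the 27 genes, 18 had their lowest value in the first old pool, and the share over all genes was not counted. This pool also had the highest Paneth marker counts, and a link was not tested.

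**Figure D4:**
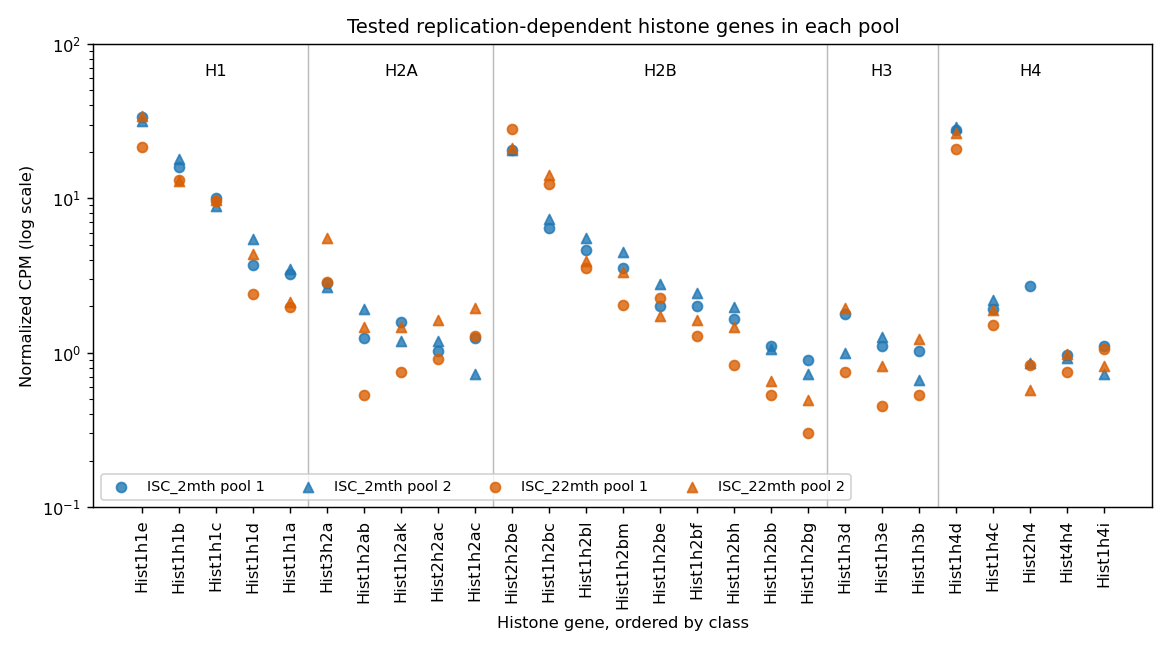
Normalized CPM (y axis, log scale) of the 27 tested histone genes in each pool, ordered by class and level (x axis), young pools in blue, old pools in orange, circles for pool 1 and triangles for pool 2. Both old pools of Hist1h2bc, at 12.5 and 14.1 CPM, lie above both young pools. In 18 of the 27 genes the lowest point is the first old pool, and the share over all genes was not counted.

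Hist1h2bc was the histone gene that rose with age. Its counts were 94 and 111 in the young pools and 165 and 172 in the old pools, or 6.48 and 7.34 CPM against 12.5 and 14.1 CPM. The old pools were thus clear of the young pools, and the difference was larger than the spread within either age. The mean went from 6.91 ± 0.614 to 13.3 ± 1.13 CPM (SD, n = 2 pools per age), which is 1.92-fold, with a log2 fold change of 0.94 (standard error 0.21, adjusted p = 0.023 by edgeR's quasi-likelihood test). As a share of all H2B counts it was 14.9% (exact 95% interval 12.2 to 17.9%) and 15.2% (12.7 to 18%) in the young pools. In the old pools the share was 24.1% (20.9 to 27.5%) and 28.5% (24.9 to 32.3%). The share comes from the same counts as the call and is no separate support for it. Of the 50-nt stretches of Hist1h2bc, 30.6% occur in transcripts of other genes, first of all Hist1h2bg. The call was lost with DESeq2 (adjusted p = 0.062), with offsets for GC content and length (log2 fold change 0.79, adjusted p = 0.068), with scaling by total counts (0.45, adjusted p = 0.13) and without the first young pool (0.85, adjusted p = 0.15). 

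The other H2B genes encode nearly the same protein, and edgeR's quasi-likelihood test on the TMM scale called none of them (with total counts, Hist1h2bl and Hist1h2bm were called lower). Hist2h2be, on chromosome 3 from 96221119 to 96223738, had the most H2B reads, with 297 and 313 in the young pools and 373 and 261 in the old pools. Its levels were 20.5 and 20.7 CPM against 28.2 and 21.3 CPM, higher in both old pools but close to the young range in the second (log2 fold change 0.27, standard error 0.17, adjusted p = 0.44). Its transcript shares no stretch with another gene. The 7 other H2B genes tested all had log2 fold changes below 0, from -0.26 for Hist1h2be to -1.02 for Hist1h2bg, and in 6 of them both old pools lay below both young pools, against 23.6% of all genes tested. These 7 are what remains after the 2 higher genes are set aside, and Hist1h2bb and Hist1h2bg passed the filter in young pools only. Hist1h2bl had 67 and 84 counts in the young pools and 47 and 48 in the old pools (log2 fold change -0.45, standard error 0.29, adjusted p = 0.47), and 82.8% of its stretches are shared. Hist1h2bm had 51 and 68 counts against 27 and 41 (log2 fold change -0.58, standard error 0.36). Hist1h2bg rested on few reads, 13 and 11 against 4 and 6, with a standard error of 0.90.

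H1 genes encode the linker histone variants, and 5 of 6 were tested. Hist1h1b, on chromosome 13 from 21779883 to 21780625, had 232 and 273 counts in the young pools and 175 and 158 in the old pools. In CPM these were 16 and 18.1 against 13.2 and 12.9, lower in both old pools, with a log2 fold change of -0.38 (standard error 0.18) that did not pass the adjustment (adjusted p = 0.29). Hist1h1a had 47 and 53 counts against 26 and 26, and its levels of 3.24 and 3.51 CPM lay above those of 1.96 and 2.13 CPM in the old pools (log2 fold change -0.72, standard error 0.38, adjusted p = 0.35). Neither gene shares a 50-nt stretch with another. Hist1h1e, the histone gene with the most reads, varied between the old pools. It had 492 and 478 counts in the young pools and 286 and 420 in the old pools, or 33.9 and 31.6 CPM against 21.6 and 34.3 CPM, so that the ages overlapped. Its log2 fold change was -0.23 (standard error 0.18, adjusted p = 0.55), was 0.070 without the first old pool, and was called without the second old pool, at -0.60. Exons of Hist1h1e overlap those of Hist1h2be and Gm11398 over 816 bases in total, and reads there cannot be assigned to one gene. Hist1h1e and Hist1h2be lie on the same strand. Hist1h1c, with 147 and 135 counts against 127 and 119, had a log2 fold change of 0.021 (standard error 0.21), and Hist1h1d one of -0.44 (standard error 0.34), with ages that overlapped.

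H4 genes all encode the same core protein, and 1 of them held most of the reads. Hist1h4d, on chromosome 13 from 23581598 to 23582735, had 405 and 440 counts in the young pools and 278 and 322 in the old pools. Its levels of 27.9 and 29.1 CPM were above those of 21.0 and 26.3 CPM in the old pools, with a log2 fold change of -0.27 (standard error 0.16, adjusted p = 0.41). Hist2h4 of cluster 2, which passed the filter in young pools only, had the lowest log2 fold change of the histone genes tested, -1.32 (standard error 0.68, adjusted p = 0.34). Its counts of 39 and 13 against 11 and 7 differed more within the young pools than between the second young pool and the old ones. Hist1h4c had 28 and 33 counts against 20 and 23 (log2 fold change -0.28, standard error 0.47). Hist1h4i, with 16 and 11 against 14 and 10, had a log2 fold change of 0.040 (standard error 0.71).

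H2A and H3 genes had few reads. The 5 H2A genes tested had 3 log2 fold changes above 0 and a median of 0.18. Hist1h2ac had 18 and 11 counts in the young pools and 17 and 24 in the old pools, with both old pools above both young pools in CPM (log2 fold change 0.72, standard error 0.61, adjusted p = 0.59). Hist1h2ab had 18 and 29 against 7 and 18 (log2 fold change -0.67, standard error 0.64), Hist1h2ak 23 and 18 against 10 and 18 (log2 fold change -0.32, standard error 0.62) and Hist2h2ac 15 and 18 against 12 and 20 (log2 fold change 0.18, standard error 0.63), and in all 3 the ages overlapped. Of the H3 genes 3 were tested. Hist1h3e had 16 and 19 counts against 6 and 10 (log2 fold change -0.89, standard error 0.74), Hist1h3d 26 and 15 against 10 and 24 (log2 fold change -0.041, standard error 0.62) and Hist1h3b 15 and 10 against 7 and 15 (log2 fold change 0.044, standard error 0.77). None passed the threshold.

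**Figure D5:**
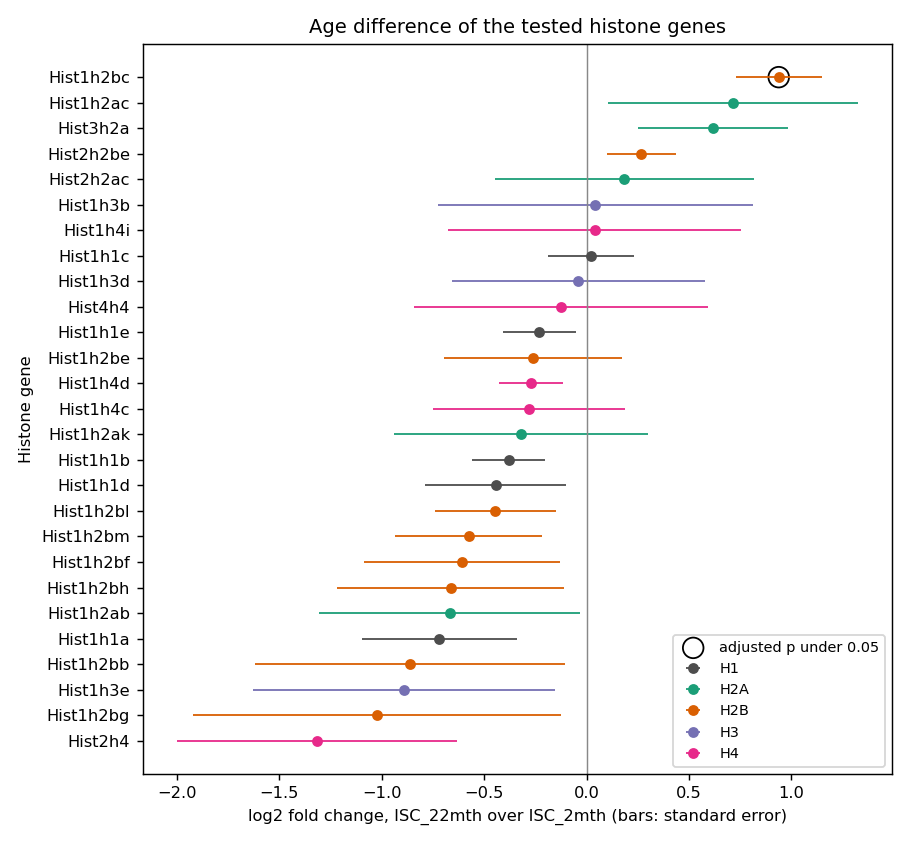
Log2 fold change of old over young ISCs (x axis, bars are standard errors) of the 27 tested histone genes in order (y axis), coloured by class, with a ring for an adjusted p under 0.05. The values run from -1.32 for Hist2h4 to 0.94 for Hist1h2bc, the one ringed gene, and 19 lie below 0.

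By position, the genes fall on 4 chromosomes. Cluster 1 on chromosome 13 holds 56 genes, of which 24 lie between 21715763 and 22043676, 31 between 23531050 and 23934851, and the pseudogene Hist1h2al alone at 51202727. The first group of cluster 1 summed to 28.7 and 32.9 CPM in the young pools and 21.8 and 23.6 CPM in the old pools, lower in both old pools. The second group, which includes Hist1h2bc, Hist1h1e and Hist1h4d, summed to 104 and 105 CPM against 80.6 and 107 CPM, with ages that overlapped. Cluster 2 on chromosome 3 holds 10 genes, summed to 24.9 and 23.1 CPM against 30.3 and 24.5 CPM, and most of this was Hist2h2be. Cluster 3 on chromosome 11 holds 3 genes. Of these, Hist3h2a had 41 and 40 counts against 38 and 68 (log2 fold change 0.62, standard error 0.37, adjusted p = 0.42), which rested on the second old pool, and its exons overlap those of Trim17 and Gm44313. Hist3h2ba had 2 and 0 counts against 0 and 1, and Hist3h2bb-ps had 0. The one gene of cluster 4 on chromosome 6, Hist4h4, had 14 and 14 counts against 10 and 12 (log2 fold change -0.12, standard error 0.72).

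Histone genes of H2A and H2B are often arranged head to head, with a common promoter region between them. In these data 14 pairs of neighbours had starts on opposite strands at most 350 bases apart, and all 14 joined an H2A gene with an H2B gene. Both genes were tested in 2 pairs. Hist1h2ac and Hist1h2bc, with 250 bases between their starts, had log2 fold changes of 0.72 and 0.94, and both were higher in both old pools, although only the second passed the test. Hist2h2ac and Hist2h2be, 238 bases apart, had log2 fold changes of 0.18 and 0.27. In the other pairs at least 1 gene was not tested, as in Hist1h2bl (-0.45) with Hist1h2ai, which had 3 and 4 counts in the young pools and 0 and 1 in the old pools. The pairs were looked at after the values were known and are a description.

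The 25 genes with reads that were not tested were Hist1h1t and 24 core histone genes. Together they had 76 and 84 counts in the young pools and 37 and 36 in the old pools, which is 5.24 and 5.56 CPM against 2.80 and 2.94 CPM. The sums of both old pools were below those of both young pools, although single genes had few reads. Hist1h3g had 9 and 7 counts against 2 and 1, Hist1h4j 6 and 8 against 1 and 0, and Hist1h3a 5 and 5 against 1 and 1, whereas Hist2h3c2 had 0 and 0 against 2 and 2. When all genes with a count were tested without a filter, 37 of 52 histone genes had a log2 fold change below 0, against 51.6% of all genes, with a median of -0.51, against -0.023 over all genes. Hist1h2bc was the one histone gene called, against 2.24% of all genes.

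Grouped by how the annotated transcripts end, a grouping made after the values were seen, the 23 genes whose models end within 100 nt of the stem-loop summed to 12 and 14.3 CPM in the young pools and 6.72 and 10.9 CPM in the old pools. The 23 genes with models that run further summed to 95.5 and 92.3 CPM against 68.4 and 93.4 CPM. The 24 genes without a match, which include Hist1h2bc and Hist2h2be, summed to 53.9 and 58.0 CPM against 61.2 and 57.5 CPM. Of the 3 groups, the first was lower in both old pools and the other 2 overlapped between ages. The difference between these groups was not tested.

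Of 27 genes tested for histone transcription and 3′ end processing, 0 were called in either direction by edgeR's quasi-likelihood test, limma voom with sample quality weights or DESeq2. Snrpd3 was lower by the likelihood ratio test. At an unadjusted p under 0.05, 3 were higher and 1 lower, against 9.26% and 7.65% of all genes. Rnu7, the U7 RNA that pairs with histone messages downstream of the stem-loop, was listed at 0 in all 4 pools. Slbp, which binds the stem-loop, had 325 and 321 counts in the young pools and 277 and 256 in the old pools (log2 fold change -0.059, standard error 0.16, adjusted p = 0.89). Npat, the activator of histone gene transcription in S phase, had 417 and 493 against 460 and 479 (log2 fold change 0.27, standard error 0.14, adjusted p = 0.36). Casp8ap2, a component of histone locus bodies, had 559 and 610 against 690 and 576 (log2 fold change 0.33, standard error 0.13, adjusted p = 0.21). The lowest p of the list belonged to Snrpd3, a subunit shared by spliceosomal and U7 particles, with 222 and 292 counts against 123 and 141 (log2 fold change -0.74, standard error 0.20, adjusted p = 0.059). It was called lower in 7 of 15 alternatives, among them the likelihood ratio test, the offsets for GC content and length (adjusted p = 0.049) and the fits without the first young pool or without the second old pool, and its adjusted p ran from 0.00014 to 0.32. Of 17 factors of histone mRNA decay, 0 were called by edgeR's quasi-likelihood test, limma voom with weights or DESeq2. Upf1 was lower by the likelihood ratio test. At an unadjusted p under 0.05, 1 was higher and 2 lower, against 9.26% and 7.65% of all genes. Upf1, a helicase that acts in this decay, had a log2 fold change of -0.61 (standard error 0.17, adjusted p = 0.072).

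Of 24 histone chaperones tested, edgeR's quasi-likelihood test called 1 higher and 1 lower, against 1.63% and 0.628% of all genes. Their median log2 fold change was 0.053. Hat1, which acetylates newly made H4, rose from 437 and 437 counts to 535 and 559 (log2 fold change 0.54, standard error 0.14, adjusted p = 0.046). Cabin1, part of the HIRA complex that places H3 outside replication, fell from 537 and 498 counts to 309 and 289 (log2 fold change -0.57, standard error 0.15, adjusted p = 0.045). DESeq2 called neither, at adjusted p = 0.092 and adjusted p = 0.096, and neither was called with offsets for GC content and length. Of the 4 fits that left out a pool, 1 called Hat1 (without the first old pool) and 2 called Cabin1 (without either old pool). Hat1 was called in 8 of 15 alternatives and had a log2 fold change of 0.054 with total counts, and Cabin1 was called in 11 of 15.

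The 51 S phase genes tested had a median of 0.038 for the log2 fold change, 28 above and 23 below 0, and the 30 genes of G2 and M phase had a median of -0.0011, with 15 above and 15 below. With total counts, which move all genes down, these medians were -0.45 and -0.49. In that setting 22 S phase genes and 22 genes of G2 and M phase were called lower, against 33.1% of all genes tested. At an unadjusted p under 0.05, 7 S phase genes were higher and 3 lower, against 9.26% and 7.65% of all genes. At an adjusted p under 0.05, edgeR's quasi-likelihood test called 1.63% of all genes higher and 0.628% lower. Of the S phase genes, edgeR's quasi-likelihood test called 1, Rpa3, a subunit of the single-strand DNA binding complex, which rose from 108 and 120 counts to 196 and 172 (log2 fold change 0.91, standard error 0.20, adjusted p = 0.022), and it was called in 11 of 15 alternatives. The call was lost with DESeq2 (adjusted p = 0.055), the offsets (log2 fold change 0.71, adjusted p = 0.087), total counts (0.42, adjusted p = 0.14) and without the first young pool (0.86, adjusted p = 0.12). Rrm2, a subunit of ribonucleotide reductase, was called higher by limma voom with weights and by the likelihood ratio test. Among the G2 and M phase genes, 0 were called by edgeR's tests, limma voom with weights or DESeq2. At an unadjusted p under 0.05, 1 was higher and 1 lower, against 9.26% and 7.65% of all genes. Mki67, a marker of dividing cells, had 13068 and 14311 counts in the young pools and 13248 and 13329 in the old pools (log2 fold change 0.18, standard error 0.099, adjusted p = 0.38). The histone genes tested, with a median of -0.28, lay below these lists in value, and the difference between lists was not tested.

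Replication-independent histone genes, most of which give polyadenylated messages outside S phase as well, had more reads than the replication-dependent genes as a group. They had 5834 and 5733 counts in the young pools and 5290 and 5270 in the old pools, or 402 and 379 CPM against 400 and 431 CPM. Reads also depend on how transcripts end and on shared sequence, so that these counts do not compare RNA levels between the groups. Of 10 replication-independent genes tested, 0 were called by edgeR's quasi-likelihood test, limma voom with weights or DESeq2, and H2afy2 was lower by the likelihood ratio test. At an unadjusted p under 0.05, 1 was higher and 1 lower, against 9.26% and 7.65% of all genes. The median log2 fold change of these 10 genes was 0.018. H3f3b, one of the genes of variant H3.3, had 798 and 853 counts against 871 and 913 (log2 fold change 0.33, standard error 0.13, adjusted p = 0.18). H2afx, whose protein marks DNA breaks and whose message can end in a stem-loop or a poly(A) tail, had 645 and 594 counts against 359 and 490 (log2 fold change -0.32, standard error 0.16, adjusted p = 0.34), with ages that overlapped in CPM. H2afy2, of a macroH2A variant, had 13 and 15 counts against 0 and 2 (adjusted p = 0.16), and its fold change is uncertain because the old pools lay under the floor of 3 counts.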

How the data were processed

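RNA of sorted ISCs was measured in 4 SPIA libraries. The authors checked the reads with FastQC, trimmed them with Trimmomatic 0.30, aligned them with STAR 2.4.2a to GRCm38, counted reads in exons of GENCODE vM15 genes with featureCounts, and deposited raw counts per gene. The featureCounts version, its strand setting and how it handled reads with several alignments are not given in the sources used here.

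A gene was tested if any 1 pool held over 5 reads and over 1 CPM of it before TMM scaling (13692 of 52459 genes). Library totals were scaled by TMM, and ages were compared with edgeR 4.0.16 (R 4.3.3, glmQLFit, glmQLFTest, two-sided, no covariate), adjusting p over the genes kept. Standard errors are the log2 fold change divided by the square root of F. Alternatives used limma 3.58.1, DESeq2 1.42.0 and other scalings, filters and pool sets. Offsets came from lowess fits (span 0.3, 3 iterations) on GC content and exonic length, known for 96.7% of the genes tested. Fits were tested on simulated data. Sampling noise alone was exceeded between pools of one age (chi-square per gene, 9.42 in ISC_2mth and 7.11 in ISC_22mth). P-values measure the spread between such pools.

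Positions, lengths and 50-nt stretches came from GENCODE vM21 of GRCm38, matched by symbol (70 of 70 histone genes), so that the gene models may differ from those used for counting. Genes named are those with an unadjusted p under 0.05, the 3 with the highest level per length and both extremes of log2 fold change in each class, the counted genes of clusters 3 and 4, called or lowest-p genes of other lists, and a few fixed ones. Other genes were named after their values were seen. The members and lists were chosen with earlier results of these data known.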

Additional observations from a re-analysis of the deposited data

How the results depend on the processing

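Hist1h2bc kept a log2 fold change above 0 in all 15 alternatives and was called in 11, with adjusted p from 0.0031 to 0.15. The histone genes called (1) became 0 with DESeq2, 0 with offsets for GC content and length, and 8, all lower, with total counts, and ran from 0 (without ISC_2mth replicate 1) to 2 (without ISC_22mth replicate 2, with Hist1h1e lower). All genes called (309) came to 197 with DESeq2, 611 with the likelihood ratio test, 4632 with total counts (96 higher, 4536 lower), 554 with no filter and 179 with the offsets, and ran from 151 (without ISC_2mth replicate 1) over 652 (without ISC_22mth replicate 1) to 710 (without ISC_22mth replicate 2). The median log2 fold change of the histone genes (-0.28) was -0.76 with total counts and -0.51 with no filter, and ran from -0.60 to -0.11 when a pool was left out. The log2 ratio of their summed CPM (-0.13) was -0.62 with total counts and ran from -0.26 (without ISC_22mth replicate 2) to -0.011 (without ISC_22mth replicate 1). The cause was not tested, except that total counts include the mitochondrial reads.

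Signs turned with total counts for Hist1h1c (-0.47), Hist2h2ac (-0.29), Hist2h2be (-0.23), Hist1h3b (-0.45), Hist1h4i (-0.46), Npat (-0.22), Casp8ap2 (-0.16), Mki67 (-0.31), H3f3b (-0.15), Cstf2 (-0.13), Exosc3 (-0.051), Cenpe (-0.23) and Hmmr (-0.24), with the offsets for Hist1h2ak (0.020), and for Hist1h3b with limma voom with weights (-0.042) and without (-0.041). When a pool was left out, signs turned within the ranges -0.60 to 0.070 for Hist1h1e, -0.071 to 0.11 for Hist1h1c, -0.87 to 0.087 for Hist1h2ak, -0.29 to 0.55 for Hist2h2ac, -0.67 to 0.53 for Hist1h3b, -0.87 to 0.50 for Hist1h3d -0.23 to 0.21 for Hist1h4i, -0.32 to 0.055 for Hist4h4 and -0.19 to 0.028 for Olfm4.

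The replicate numbers do not pair the pools beyond the number itself (correlation of deviations -0.0031 over 13692 genes). With a replicate block 624 genes were called, and among histone genes 1, Hist1h2bc, as without it. Leaving out a pool leaves 1 sample at that age, assumed to vary like the others.

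There were 2 pools per age, and 12 of the 27 tested histone genes had a mean under 20 counts. The restriction to genes past the filter at both ages, the medians without Hist1h2bc and Hist2h2be, and the sums with a pool left out were added after seeing the data.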
